A study of Homo sapiens with 9 samples.

Results

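The genes described here are 56 factors that start, extend and end protein synthesis in the cytosol, with a few proteins that bind these factors or the ribosome. They were chosen by symbol, and all 56 are among the 27315 genes of the deposited expression table. The cells were MDA-MB-468, a long-established human breast cancer line of the triple-negative class. There were 3 groups of 3 libraries: a hairpin against BBOX1 called sh1, a second hairpin against BBOX1 called sh6, and a scrambled control hairpin. Every group, the controls included, had been infected with a lentivirus that carried a hairpin in the pLKO.1 vector and was then kept under antibiotic selection. BBOX1 is gamma-butyrobetaine hydroxylase, which completes the synthesis of carnitine, and the comparison asks which transcripts differ when it is depleted. The labels speak of triplicates of this 1 line without saying that they were separate infections, so the p-values measure the spread between these libraries.

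Translation starts when the small ribosomal subunit, loaded with initiator tRNA by eIF2 and held by eIF1, eIF1A, eIF3 and eIF5, is brought to the capped end of an mRNA by the eIF4 factors and poly(A)-binding protein. The eEF1 complex then delivers aminoacyl-tRNA, eEF2 moves the ribosome along, eIF5A eases difficult peptide bonds, and the release factors eRF1 and eRF3 free the finished chain. Many of the elongation factors, poly(A)-binding protein and nearly all ribosomal proteins are encoded by TOP mRNAs. These begin with a cytosine and an unbroken run of pyrimidines (a terminal oligopyrimidine tract), and their translation and stability are known to depend on mTORC1 signalling and on the RNA-binding protein LARP1. Of the 56 genes, 13 are counted here as known TOP mRNAs: EEF1A1, EEF1A2, EEF1B2, EEF1D, EEF1G, EEF2, EIF3E, EIF3F, EIF3H, EIF4B, PABPC1, RACK1 and TPT1.

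The tract can be read in the genome sequence at the start of these genes, which is why the starts are shown. Each sequence below has 15 bases before and 15 bases from the annotated start of RefSeq (GRCh38.p14, gene strand), and capitals mark a C at the start position with the unbroken C and T that follow it, where there are at least 4 of them. Of the 13 TOP mRNAs, 8 have an entry in the promoter table used, and 7 of these hold the capital run.

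EEF1A1 (chr6:73521018-73521047, minus strand): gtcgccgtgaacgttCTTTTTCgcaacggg

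EEF1B2 (chr2:206159880-206159909, plus strand): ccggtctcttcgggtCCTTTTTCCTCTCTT

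EEF2 (chr19:3985449-3985478, minus strand): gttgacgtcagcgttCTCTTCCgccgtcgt

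TPT1 (chr13:45341169-45341198, minus strand): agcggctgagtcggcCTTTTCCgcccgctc

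RACK1 (chr5:181243892-181243921, minus strand): ggggggcttttctctCTCTCTTTCactgca

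EIF3F (chr11:7987322-7987351, plus strand): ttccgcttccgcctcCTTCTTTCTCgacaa

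EIF4B (chr12:53006441-53006470, plus strand): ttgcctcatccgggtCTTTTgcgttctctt

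EEF1G (chr11:62573877-62573906, minus strand): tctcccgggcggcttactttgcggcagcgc

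The last of these, EEF1G, has no such run at the annotated start. The run of EEF1B2 reaches the end of the bases shown. The same run stands at the start of 7 translation factors that are not in the TOP list, EIF2A, EIF2D, EIF2S3, EIF3D, EIF3K, EIF3M and EIF4A2, of which 3 are shown from the 5 whose mRNAs fell with both hairpins.

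EIF2S3 (chrX:24054941-24054970, plus strand): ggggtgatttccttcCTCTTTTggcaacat

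EIF2A (chr3:150546772-150546801, plus strand): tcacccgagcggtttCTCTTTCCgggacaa

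EIF4A2 (chr3:186783562-186783591, plus strand): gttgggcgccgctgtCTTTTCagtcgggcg

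For contrast, the starts of EIF5A2 and EIF2S1, which rose with both hairpins, hold no run. These examples were picked by their changes, and other factors differ from them. EEF2K, EIF2B1 and ETF1 fell with both hairpins and hold no run at the start, and EIF3K holds a run and was called with neither.

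EIF5A2 (chr3:170908623-170908652, minus strand): cccgccccgtctcttggaactgccgcggcc

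EIF2S1 (chr14:67360313-67360342, plus strand): gcgaggaggttccgcatgcgcggtggagtg

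Among all 10061 tested genes with an entry, 746 (7.41%) had a C and at least 4 pyrimidines exactly at an annotated start, against 14 of the 45 tested translation factors with an entry (31.1%) and 47 of 63 ribosomal protein genes (74.6%). Genes with several annotated starts were counted if any start held the run, and only the gene strand was read. Reading the start position alone was decided after these sequences had been seen. With the run allowed to begin anywhere within 10 bases of the start, 42.0% of all tested genes and 57.8% of the translation factors held one.

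BBOX1 itself was lowered by both hairpins. Its normalised count was 324, 346 and 328 with sh1, 606, 618 and 581 with sh6 and 2703, 2785 and 2359.8 in controls, which left 12.7% of the control mean with sh1 and 23.0% with sh6. The groups did not overlap, and the exact two-sided permutation test gave p = 0.1 for each hairpin, the smallest that 3 against 3 libraries allow. The libraries held 15741533 to 16222271 recovered reads with sh1, 16027447 to 18838177 with sh6 and 16735895 to 19755828 in controls. Epithelial markers (EPCAM, CDH1, KRT8, KRT18 and KRT19) summed to 87164 or more in every library, the progesterone receptor PGR was at 0 in all 3 groups, and 4 of 5 fibroblast markers averaged under 3 in each group, the exception being COL1A1. COL1A1 averaged 304.2 with sh1, 331.7 with sh6 and 374.4 in controls. The oestrogen receptor ESR1 averaged 242.3 with sh1, 108.6 with sh6 and 227.4 in controls. ERBB2, the other receptor looked at, averaged 753.3 with sh1, 601.9 with sh6 and 1090.8 in controls. Levels here are normalised counts, recovered from the authors' log2-like values, and a change is the difference of those log2-like values with its standard error (SE) from limma. A gene was called where the limma p, adjusted over all 13165 genes above a low-value filter, was under 0.05; rose and fell are used of called genes. The shift between groups was broad: of these 13165 genes, 58.9% were called with sh1 against control and 67.8% with sh6 against control, so a call by itself is common in these data.

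Of the 56 translation factors, 54 passed the filter on low values and were tested. The other 2 are EEF1A2, at a mean of 0 with sh1, 0.354 with sh6 and 0.983 in controls, and EIF4G3, at 16.0 with sh1, 8.39 with sh6 and 7.29 in controls. With sh1, 26 of the 54 fell and 9 rose, where over all tested genes 30.0% fell and 29.0% rose. With sh6, 20 fell and 17 rose, where over all genes 33.6% fell and 34.2% rose. The median log2 change of the factors was -0.12 with sh1 and -0.033 with sh6, against 0.001 and 0.0058 over all tested genes. For the mean of both hairpins, 24 fell and 13 rose, where 65.5% of all genes were called, 33.1% lower and 32.3% higher. Called in the same direction with both hairpins were 15 that fell and 7 that rose, where 38.3% of all genes were so called, 19.4% lower and 18.9% higher, and the comparisons share the 3 control libraries. Quantile normalisation moved the sh1 split to 19 lower and 16 higher, and the sh6 split to 17 lower and 19 higher.

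Most TOP mRNAs fell with sh1. With sh1, 11 of the 12 tested TOP mRNAs fell and 0 rose, with a median log2 change of -0.34, and after quantile normalisation 8 fell and 0 rose, since EEF2, PABPC1 and RACK1 lost their call and RACK1 turned to 0.089. The other 42 factors had 15 that fell and 9 that rose with sh1 and a median of -0.064, and quantile normalisation turned this split to 11 lower and 16 higher. With sh6, 6 TOP mRNAs fell and 2 rose with a median of -0.12, while 14 of the others fell and 15 rose with a median of -0.030. That TOP split with sh6 became 5 lower and 3 higher with each library centred on its median and 6 lower and 4 higher after quantile normalisation. Between the hairpins, all 12 tested TOP mRNAs were higher with sh6 than with sh1 (median 0.37), where 59.7% of all tested genes were called, 30.8% higher and 28.9% lower. After quantile normalisation 9 of these 12 calls were kept, and EEF1A1 turned to -0.082.

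The summed share of each library was also compared. The 13 TOP mRNAs took 1.67%, 1.69% and 1.70% of all normalised counts with sh1, 2.00%, 2.02% and 1.98% with sh6, and 2.19%, 2.33% and 2.17% in controls, and the 3 groups did not overlap. This sum is weighed by its most abundant mRNA, EEF1A1, at a mean of 111392 with sh1, 136161 with sh6 and 169329 in controls. It does not speak for each of the 13: with sh6, 6 of the 12 tested fell and 2 rose. The other 43 factors took 1.21%, 1.19% and 1.21% with sh1, 1.11%, 1.14% and 1.15% with sh6, and 1.13%, 1.11% and 1.16% in controls, so that the sh1 libraries lay above the rest and the sh6 and control libraries overlapped. A share depends on the total of its library, and this higher sh1 share is not a rise in normalised counts. Of the 42 tested, 15 fell and 9 rose with sh1, with a median log2 change of -0.064. In bulk libraries less of a transcript in every cell and fewer cells that carry it cannot be told apart.

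**Figure D1:**
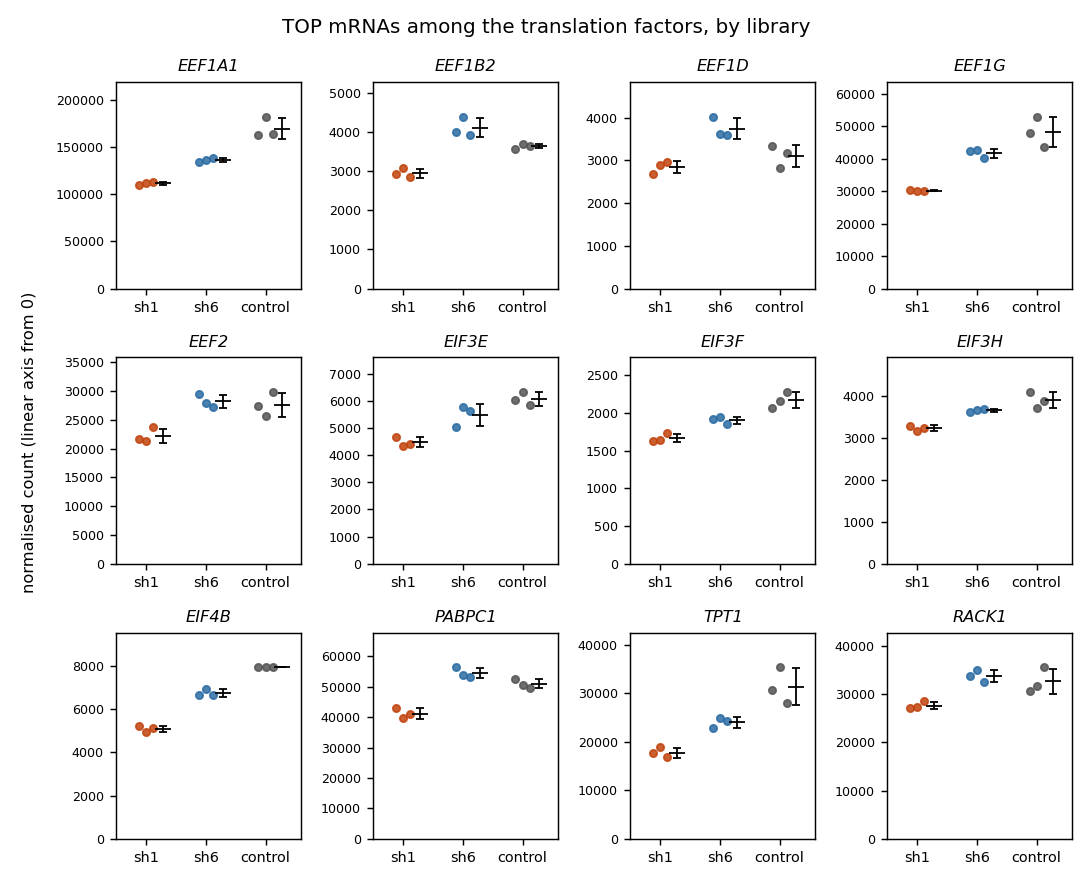
Normalised counts (linear axes from 0) of the 12 tested TOP mRNAs in each of the 9 libraries, with sh1 on the left, sh6 in the middle and control on the right; points are libraries, the long bar is the mean and the whiskers 1 SD of 3 libraries. In 11 of the 12 panels every sh1 library lies below every control library, the exception being EEF1D, while the sh6 libraries lie below the controls in some panels and above them in EEF1B2, EEF1D and PABPC1.

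With sh1 the largest falls of the TOP group were in TPT1, EEF1G, EIF4B and EEF1A1. TPT1 encodes the translationally controlled tumour protein, a small protein that binds eEF1A and is a classic TOP message. Its normalised count was 17671, 18869.5 and 16818 with sh1, 22829, 25029 and 24291.5 with sh6 and 30809.6, 35451 and 28019.8 in controls. The 3 groups did not overlap and stood in the order sh1, sh6, control, with log2 changes of -0.81 ± 0.065 (adjusted p = 3.77e-12) with sh1 and -0.38 ± 0.065 (adjusted p = 6.92e-06) with sh6. After quantile normalisation the sh1 value was -0.53.

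EEF1A1 encodes the GTPase that brings aminoacyl-tRNA to the ribosome, and per kilobase of transcript it had the highest level of the factors in controls. Its count was 109419, 112025 and 112732.5 with sh1, 134408, 135750.4 and 138325.5 with sh6 and 162699, 181839 and 163449 in controls, again with no overlap between the 3 groups. Its log2 change was -0.60 ± 0.061 (adjusted p = 6.07e-10) with sh1, -0.24 after quantile normalisation, and -0.31 ± 0.061 (adjusted p = 4.06e-05) with sh6. Its paralog EEF1A2, the form of muscle and neurons, had 0 normalised counts in all 3 sh1 libraries, 0, 0 and 1.1 with sh6 and 2.1, 0 and 0.9 in controls, too few for any comparison. Per kilobase, EEF1A1 stood at 32316 with sh1, 39501 with sh6 and 49124 in controls. RACK1 stood higher than EEF1A1 with both hairpins, at 33463 with sh1 and 40835 with sh6, and lower in controls, at 39529. These levels rest on median transcript lengths of 3447 bases for EEF1A1 and 825 for RACK1. Processed pseudogenes of EEF1A1, TPT1 and RACK1 are near-identical in sequence, and no source used here says how the counting divided such reads, so these levels are uncertain.

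The nucleotide exchange complex of eEF1 recharges eEF1A with GTP, and its subunits did not move as 1 unit. EEF1G, the gamma subunit, had 30226, 30021 and 30220.4 with sh1, 42342, 42693 and 40156 with sh6 and 47995, 52973 and 43754 in controls. Its fall was -0.67 ± 0.060 (adjusted p = 4.08e-11) with sh1 and -0.20 ± 0.060 (adjusted p = 0.00334) with sh6, with no overlap between any of the groups; without control replicate 2 the sh6 value was -0.14. EEF1B2, the beta subunit, had 2915, 3073 and 2846 with sh1, 3998, 4388.5 and 3932 with sh6 and 3576, 3686 and 3652 in controls. It fell with sh1 and rose with sh6: every sh1 library was below and every sh6 library above the controls, at -0.30 ± 0.054 with sh1 and 0.17 ± 0.054 with sh6 (adjusted p = 1.79e-05 and 0.00619). The rise with sh6 was lost without sh6 replicate 2, at 0.12 with an adjusted p of 0.077. EEF1D, the delta subunit, had 2690.4, 2899 and 2961 with sh1, 4023, 3616 and 3593 with sh6 and 3332, 2833 and 3167 in controls. It rose with sh6, 0.26 ± 0.060 (adjusted p = 0.000304), and the sh1 value of -0.12 ± 0.060 (adjusted p = 0.0827) missed the threshold, which it passed with array weights (-0.18, adjusted p = 0.00111).

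EEF1E1, which is not a TOP mRNA and encodes a scaffold protein of the multi-tRNA synthetase complex, fell with sh1 (-0.30 ± 0.062, adjusted p = 0.000132) and had -0.033 ± 0.062 with sh6. EEF2, the translocase, had 21646, 21279.5 and 23696 with sh1, 29530.5, 27976 and 27209 with sh6 and 27339, 25719.7 and 29882 in controls. The sh1 libraries lay below both other groups, and sh6 and control overlapped. The log2 change was -0.31 ± 0.059 (adjusted p = 3.39e-05) with sh1, -0.047 (adjusted p = 0.5) after quantile normalisation, and 0.032 ± 0.059 (adjusted p = 0.64) with sh6. EEF2K, the kinase that inactivates eEF2, had 347, 391 and 393 with sh1, 504, 489 and 474 with sh6 and 567, 522 and 591 in controls, and its mRNA fell with sh1 (-0.50 ± 0.071, adjusted p = 3.71e-07). With sh6 the EEF2K fall of -0.17 ± 0.071 (adjusted p = 0.0312) was lost without control replicate 1 or 3 or sh6 replicate 2 or 3 (adjusted p 0.0645 to 0.112), with median centring (0.0635) and after quantile normalisation (0.0619).

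Of the TOP mRNAs that serve initiation, EIF4B fell most. eIF4B stimulates the helicase eIF4A, and its mRNA had 5201, 4931 and 5105 with sh1, 6630.2, 6943 and 6653 with sh6 and 7924, 7936 and 7923 in controls. The log2 change was -0.64 ± 0.049 (adjusted p = 1.90e-12) with sh1 and -0.23 ± 0.049 (adjusted p = 0.000133) with sh6. PABPC1, the main cytoplasmic poly(A)-binding protein, had 42961, 39579 and 40949.5 with sh1, 56459, 53986 and 53208 with sh6 and 52616, 50559.8 and 49679 in controls. It fell with sh1 (-0.31 ± 0.055, adjusted p = 1.84e-05) but stood at -0.023 (adjusted p = 0.719) after quantile normalisation. With sh6 every PABPC1 library was above the controls, yet the change of 0.098 ± 0.055 (adjusted p = 0.116) missed the threshold, and it passed after median centring (0.12, adjusted p = 0.0462) and quantile normalisation (0.19, adjusted p = 0.00185). RACK1, a scaffold protein of the small ribosomal subunit, had 27034, 27329 and 28457 with sh1, 33675, 34991.5 and 32401 with sh6 and 30673, 31572 and 35589.8 in controls, with the sh1 libraries below both other groups. Its change was -0.24 ± 0.058 (adjusted p = 0.000757) with sh1, a direction that flipped to 0.089 (adjusted p = 0.221) after quantile normalisation, and 0.049 ± 0.058 (adjusted p = 0.461) with sh6.

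The 3 TOP mRNAs of eIF3 were EIF3E, EIF3F and EIF3H. EIF3E, which also sits in other complexes of the cell, had 4685, 4354.5 and 4407.5 with sh1, 5028, 5782 and 5629 with sh6 and 6039, 6337 and 5849 in controls. EIF3F, one of the scaffold subunits, had 1629, 1643 and 1734 with sh1, 1915, 1944 and 1847.5 with sh6 and 2064, 2156 and 2279 in controls. In both genes every hairpin library was below the controls, and the sh1 libraries were the lowest. EIF3E fell by 0.43 with sh1, 0.28 after quantile normalisation, and by 0.15 with sh6, and EIF3F fell by 0.36 with sh1 and 0.18 with sh6, in log2 units. The EIF3E fall with sh6 (adjusted p = 0.0195) was lost without control replicate 2 (-0.12, adjusted p = 0.0817), without sh6 replicate 1 (-0.089, adjusted p = 0.15), with median centring (-0.12, adjusted p = 0.0533) and without a mean trend in the variance (adjusted p = 0.0639). EIF3H, a scaffold subunit, had 3284, 3149.8 and 3242 with sh1, 3618, 3658 and 3688 with sh6 and 4094, 3712 and 3886 in controls. It fell with sh1 (-0.27 ± 0.052, adjusted p = 5.17e-05), by 0.18 after quantile normalisation, and had -0.090 ± 0.052 (adjusted p = 0.124) with sh6. That sh6 value passed the threshold with array weights (-0.13, adjusted p = 0.00969).

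Other TOP mRNAs give the scale for these falls. Of 78 tested cytosolic ribosomal protein genes, 75 fell and 0 rose with sh1 (median -0.45), and 40 fell and 5 rose with sh6 (median -0.12). After quantile normalisation these counts were 64 lower and 2 higher with sh1 and 33 lower and 9 higher with sh6, and median centring gave 35 lower and 9 higher with sh6. Among the genes called with both hairpins, RPS3A had -0.56 with sh1 and -0.65 with sh6, RPS6 -0.67 with sh1 and -0.45 with sh6, RPL39 -0.71 with sh1 and -0.37 with sh6, and RPS12 -0.57 with sh1 and -0.49 with sh6. Their share of all normalised counts was 4.13%, 4.42% and 4.19% with sh1, 4.79%, 4.97% and 4.69% with sh6, and 5.18%, 5.47% and 5.22% in controls. Of 3 further TOP mRNAs outside translation, NAP1L1 fell by 0.21 with each hairpin on the log2 scale, HNRNPA1 had -0.35 with sh1 and 0.29 with sh6, and VIM had -0.22 with sh1 (adjusted p = 0.0601) and -0.67 with sh6. The last 2 were named after their values were seen.

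The start sequences can be set beside these changes, as a description. Of the 7 factors with a pyrimidine run that are not in the TOP list, 5 fell and 0 rose with sh1, and 6 fell and 0 rose with sh6. EIF3K, with 0.081 and 0.10, was called with neither. With sh6, EIF3K was called higher with median centring (0.13, adjusted p = 0.0471) and with array weights (0.13, adjusted p = 0.0158). EIF3D lost its sh6 call with median centring (-0.090, adjusted p = 0.107). After quantile normalisation 2 of the 7 fell and 1 rose with sh1, and 5 fell and 0 rose with sh6: with sh1, EIF3D and EIF3M turned to 0.020 and 0.099, EIF4A2 lost its call (-0.0080, adjusted p = 0.911) and EIF3K rose (0.15, adjusted p = 0.0257). Of the 31 tested factors with an entry but no run, 8 fell and 9 rose with sh1, and 8 fell and 12 rose with sh6; after quantile normalisation 7 fell and 13 rose with sh1, and 6 fell and 12 rose with sh6. Over all tested genes with an entry, 39.9% of the 746 with the run and 29.1% of the 9315 without it fell with sh1, and 37.3% against 33.0% fell with sh6. With the translation factors and ribosomal protein genes left out, 685 genes with the run remained, of which 35.2% fell with sh1 and 35.3% with sh6. A run at an annotated start does not show where transcription began in these cells.

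**Figure D2:**
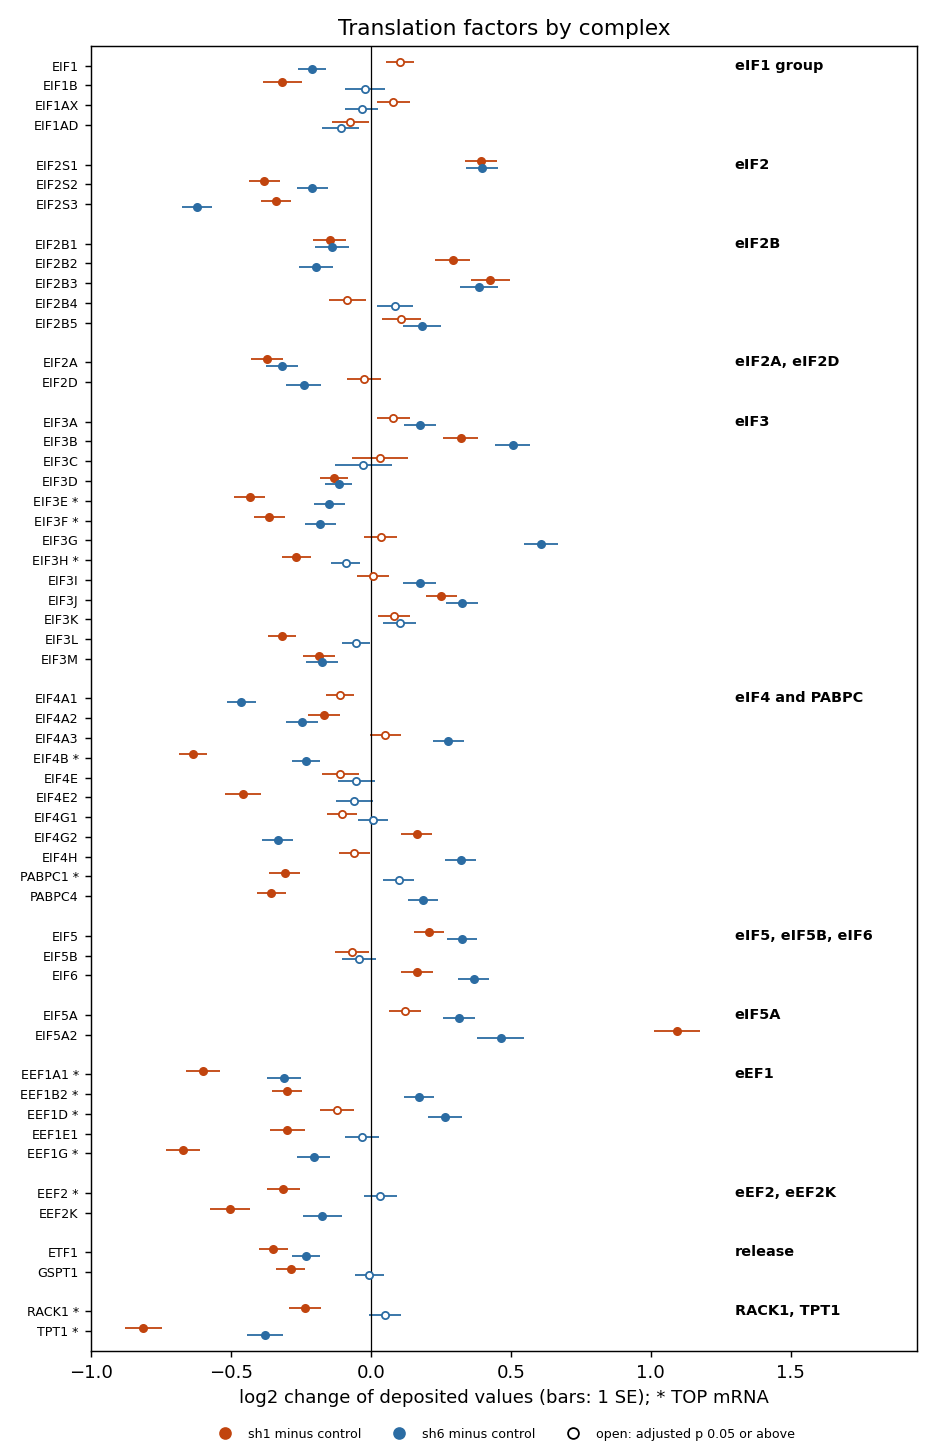
Log2 change of the deposited values for each of the 54 tested translation factors, grouped by complex, for sh1 minus control (orange) and sh6 minus control (blue); bars are 1 SE, filled points passed an adjusted p of 0.05, open points did not, and a star marks a TOP mRNA. The eIF2, eIF2B and eIF3 blocks hold members on both sides of 0, and EIF5A2 at 1.09 with sh1 is the farthest point to the right; EIF3D, EIF3M and RACK1 change sign with sh1 after quantile normalisation.

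The subunits of eIF2, which carries initiator tRNA to the small subunit and is the target of the stress kinases, moved in opposite directions, in the same way with both hairpins. EIF2S1, the alpha subunit that those kinases phosphorylate, had 2723, 2679 and 2782 with sh1, 2501, 2908 and 2808 with sh6 and 1955, 2104 and 2128 in controls. Its log2 change was 0.39 ± 0.058 (adjusted p = 7.24e-07) with sh1 and 0.40 ± 0.058 (adjusted p = 4.46e-07) with sh6, and every hairpin library lay above the controls. EIF2S3, the gamma subunit that binds GTP and the tRNA, had 3278, 3291 and 3278 with sh1, 2589, 2867.5 and 2613 with sh6 and 4045, 4348 and 4124 in controls. It fell by 0.34 with sh1 and 0.62 with sh6 (adjusted p = 2.37e-06 and 1.14e-11), with no overlap between any of the groups. EIF2S2, the beta subunit, had 4329.8, 3756 and 4179 with sh1, 4395, 4670.5 and 4747 with sh6 and 5207, 5217 and 5584 in controls and also fell, by 0.38 with sh1 and 0.21 with sh6, the sh1 value being -0.24 after quantile normalisation. In normalised counts the ratio of hairpin to control mean was 1.32 and 1.33 for EIF2S1, 0.766 and 0.863 for EIF2S2 and 0.787 and 0.645 for EIF2S3 with sh1 and sh6.

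eIF2B, the complex of 5 subunits that reloads eIF2 with GTP, was as mixed. EIF2B3, the gamma subunit, rose with both hairpins: its count was 629, 718 and 692 with sh1, 636, 659 and 681 with sh6 and 448, 515 and 507 in controls, with log2 changes of 0.43 ± 0.069 (adjusted p = 3.86e-06) with sh1 and 0.39 ± 0.069 (adjusted p = 1.24e-05) with sh6. EIF2B2, the beta subunit, had 969.8, 953 and 957 with sh1, 653, 663 and 682 with sh6 and 809.9, 735 and 775 in controls. All its sh1 libraries were above and all its sh6 libraries below the controls, a rise of 0.29 with sh1 (adjusted p = 0.000143) and a fall of -0.20 with sh6 (adjusted p = 0.00528). EIF2B1, the alpha subunit, was lower by 0.15 with sh1 and 0.14 with sh6, at adjusted p values of 0.0339 and 0.0399 near the threshold. The sh1 call of EIF2B1 was lost without control replicate 1 or 3 or any 1 of the 3 sh1 libraries (-0.13 to -0.16, adjusted p 0.0513 to 0.122). Its sh6 call was lost without control replicate 1 or 3, sh1 replicate 1 or 3 or sh6 replicate 1 or 3 (-0.10 to -0.15, adjusted p 0.0513 to 0.141), and both were lost with median centring (adjusted p = 0.0619 and 0.0912) and after quantile normalisation (0.0861 and 0.0601). The sh6 call was also lost with array weights (adjusted p = 0.105), with no filter (0.0506) and without a mean trend in the variance (0.0553). EIF2B5, the catalytic epsilon subunit, had 0.11 ± 0.069 (adjusted p = 0.178) with sh1 and 0.18 ± 0.069 (adjusted p = 0.0209) with sh6, the second lost without control replicate 1 (0.16, adjusted p = 0.0829) or 2 (0.11, adjusted p = 0.168), while without control replicate 3 it was 0.28. EIF2B4 was called with neither hairpin.

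EIF2A and EIF2D encode proteins that can place initiator tRNA without eIF2, on a limited set of mRNAs. EIF2A had 2089, 2019.9 and 1969 with sh1, 1975, 2227 and 2121.5 with sh6 and 2638, 2799 and 2498 in controls, a fall of -0.37 ± 0.057 (adjusted p = 1.61e-06) with sh1 and -0.32 ± 0.057 (adjusted p = 1.30e-05) with sh6, and every hairpin library lay below the controls. EIF2D fell with sh6 (-0.24 ± 0.061, adjusted p = 0.000928) and had -0.024 ± 0.061 with sh1. Of the 4 genes grouped here by name with eIF1 and eIF1A, 1 fell with each hairpin. EIF1, which guards start codon choice, had 4746, 4892 and 4523 with sh1, 3769, 3787 and 3777 with sh6 and 4373, 4390.4 and 4398.5 in controls, and fell with sh6 (-0.21 ± 0.050, adjusted p = 0.000437), while its 3 sh1 libraries were above the controls at 0.10 ± 0.050 (adjusted p = 0.0765). After median centring (0.12, adjusted p = 0.0388) and quantile normalisation (0.22, adjusted p = 0.000301) that sh1 value passed the threshold. EIF1B, its close paralog, had 427, 390.0 and 377 with sh1, 521, 517 and 469 with sh6 and 508, 531 and 493 in controls with a fall of -0.32 ± 0.070 (adjusted p = 0.000275) with sh1 and -0.022 ± 0.070 with sh6. Per kilobase EIF1 stood at 3019 with sh1, 2416 with sh6 and 2806 in controls, against 394 with sh1, 497 with sh6 and 506 in controls for EIF1B. EIF1AX and EIF1AD were called with neither hairpin.

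eIF3, the large scaffold of the initiation complex, has 13 subunits, all of them tested. With sh1, 6 fell and 2 rose, which became 4 lower and 6 higher after quantile normalisation, and with sh6 4 fell and 5 rose, which became 3 lower and 5 higher. With median centring the sh6 counts were 2 lower and 6 higher. Over all tested genes 30.0% fell and 29.0% rose with sh1, and 33.6% fell and 34.2% rose with sh6. EIF3B, a core subunit that holds the complex together, rose with both hairpins: its count was 6718, 6398 and 7090.5 with sh1, 7751, 7575 and 7679 with sh6 and 5155, 4863 and 6202 in controls. The log2 change was 0.32 ± 0.063 (adjusted p = 6.75e-05) with sh1 and 0.51 ± 0.063 (adjusted p = 2.96e-08) with sh6, and every hairpin library lay above the controls. EIF3J, a loosely bound subunit, had 2059, 1888 and 1924 with sh1, 1959.9, 2099 and 2131 with sh6 and 1637, 1582 and 1682.5 in controls and rose by 0.25 with sh1 and 0.32 with sh6. EIF3G, which binds EIF3B and EIF3I, was the largest rise of any translation factor with sh6. It had 7222, 7102 and 7307 with sh1, 11048, 11026 and 10239 with sh6 and 6629.7, 6569 and 8013.5 in controls, so that the sh6 libraries lay above all others and sh1 and control overlapped, with log2 changes of 0.034 ± 0.060 (adjusted p = 0.648) with sh1 and 0.61 ± 0.060 (adjusted p = 2.72e-10) with sh6. After quantile normalisation its sh1 value was 0.18 (adjusted p = 0.0103).

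Biochemically, eIF3 is described as an octamer of EIF3A, C, E, F, H, K, L and M with a module of EIF3B, G and I attached, and the values were read by these 2 units after they had been seen. All 3 members of the module rose with sh6, at 0.51, 0.61 and 0.17, and 1 rose with sh1, or 3 after quantile normalisation. The EIF3I rise was lost without control replicate 1 (0.15, adjusted p = 0.054), control replicate 2 (0.12, adjusted p = 0.0776) or sh6 replicate 2 (0.14, adjusted p = 0.064). Of the 8 octamer subunits, 5 fell and 0 rose with sh1, and 3 fell and 1 rose with sh6. After quantile normalisation EIF3M turned to 0.099 with sh1, and EIF3A and EIF3K rose to 0.23 and 0.15. The octamer counts with sh6 became 2 lower and 2 higher with median centring, and 2 lower and 1 higher after quantile normalisation. Median centring took the sh6 call of EIF3E (adjusted p = 0.0533) and gave EIF3K 1 (0.13, adjusted p = 0.0471). The octamer fall with sh1 included the TOP mRNAs EIF3E, EIF3F and EIF3H, along with EIF3L (-0.32 ± 0.050, adjusted p = 2.51e-06, or -0.17 after quantile normalisation), which had -0.055 ± 0.050 with sh6. It also included EIF3M at -0.18 ± 0.057 (adjusted p = 0.0066), against -0.17 ± 0.057 (adjusted p = 0.00804) with sh6. The EIF3M falls were lost without control replicate 2 with either hairpin (-0.13 and -0.12, adjusted p = 0.0643 and 0.0773) and without sh6 replicate 1 with sh6 (-0.12, adjusted p = 0.0686), and the sh6 fall also after quantile normalisation (-0.11, adjusted p = 0.056). EIF3A, the largest subunit, rose with sh6 (0.18 ± 0.058, adjusted p = 0.00874), though its groups overlapped and the call was lost without control replicate 1 (0.14, adjusted p = 0.0723).

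EIF3D, the subunit that can bind the cap of some mRNAs itself, had 5501, 5416 and 5576.5 with sh1, 5410.3, 5750.0 and 5527 with sh6 and 6140.0, 5922 and 6033 in controls. The change was small, -0.13 ± 0.050 (adjusted p = 0.023) with sh1 and -0.12 ± 0.050 (adjusted p = 0.0399) with sh6. The sh1 call was lost without control replicate 1, sh1 replicate 1 or sh1 replicate 2 (-0.12 to -0.13, adjusted p 0.0589 to 0.0897), and without a mean trend in the variance (0.0579), and its sign turned to 0.020 after quantile normalisation. The sh6 call was lost without control replicate 1, sh1 replicate 1 or 3 or sh6 replicate 1 or 3 (-0.096 to -0.12, adjusted p 0.0541 to 0.13). It was also lost with median centring (-0.090, adjusted p = 0.107), with voom on recovered reads (0.051), with no filter (0.0537) and without a mean trend in the variance (0.0833). EIF3K and EIF3C were called with neither hairpin. EIF3C was listed at 25.2 with sh1, 22.7 with sh6 and 23.8 in controls, and its near-identical copy EIF3CL at 1.33, 0.663 and 1.57. No source used here says how the counting divided reads that both copies share, so this level is uncertain.

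Of the 11 tested genes of the eIF4 and poly(A)-binding group, 5 fell and 1 rose with sh1, and 4 fell and 3 rose with sh6. The shares over all tested genes were 30.0% lower and 29.0% higher with sh1, and 33.6% lower and 34.2% higher with sh6. Quantile normalisation made the counts of this group 3 lower and 2 higher with sh1 and 4 lower and 4 higher with sh6. The helicase eIF4A unwinds the leader of the mRNA, and its main form EIF4A1 had 9185, 9347 and 9267 with sh1, 7015, 7312 and 7431 with sh6 and 9851, 9703 and 10522 in controls. It fell with sh6 (-0.46 ± 0.051, adjusted p = 2.15e-09). With sh1 the libraries were also all below the controls, at -0.11 ± 0.051 (adjusted p = 0.0575), a value that turned to 0.060 after quantile normalisation. The sh1 value passed the threshold with array weights (-0.0975, adjusted p = 0.0342) and with a replicate block (-0.11, adjusted p = 0.0419). EIF4A2, the second form, had 5349, 5463 and 5244 with sh1, 4783, 5484 and 4959 with sh6 and 5893, 6469.6 and 5731 in controls, and fell with sh6 (-0.25 ± 0.056, adjusted p = 0.000307). Its sh1 fall (-0.17 ± 0.056, adjusted p = 0.0111) was lost without control replicate 2 (-0.12, adjusted p = 0.0869) or sh1 replicate 3 (-0.15, adjusted p = 0.0503) and after quantile normalisation (-0.0080, adjusted p = 0.911). EIF4A3, a paralog of the exon junction complex, had 3036, 3153 and 3270.1 with sh1, 3654, 3707 and 3721 with sh6 and 2895, 2959 and 3275 in controls and rose with sh6 (0.28 ± 0.054, adjusted p = 4.73e-05). Per kilobase of transcript the control levels were 6094.5 for EIF4A1, 3168 for EIF4A2 and 1904 for EIF4A3. A readthrough transcript, SENP3-EIF4A1, was listed on its own at 5812 with sh1, 4718 with sh6 and 6111 in controls; it shares the exons of EIF4A1, so the division of reads between them is uncertain.

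Of the scaffold proteins, EIF4G1, which joins the cap-binding protein to eIF3, had 9659, 9015 and 9512 with sh1, 10529.5, 9705 and 10219 with sh6 and 10307, 9520.1 and 10491 in controls and was called with neither hairpin. EIF4G2, a relative without the cap-binding contact, had 41536, 39879.7 and 42198 with sh1, 27884, 28707 and 31028 with sh6 and 37650.2, 35840.1 and 36893 in controls. Every sh1 library was above and every sh6 library below the controls. The fall with sh6 was -0.33 ± 0.055 (adjusted p = 3.60e-06). The rise with sh1, 0.16 ± 0.055 (adjusted p = 0.0118), was lost without sh1 replicate 3 (0.15, adjusted p = 0.0616) and was 0.43 after quantile normalisation. Per kilobase, EIF4G2 stood at 11277 with sh1, 7993 with sh6 and 10069.6 in controls, against 1832 with sh1, 1979 with sh6 and 1970.3 in controls for EIF4G1. EIF4G3 had 17.7, 19.5 and 10.8 with sh1, 9.6, 5.8 and 9.7 with sh6 and 6.6, 7.3 and 8.0 in controls, below the filter. EIF4E, the cap-binding protein, had -0.11 ± 0.067 with sh1 and -0.052 ± 0.067 with sh6 and was called with neither, while EIF4E2, a cap-binding relative known as a repressor, averaged 974 ± 97.3 with sh1, 1301 ± 33.1 with sh6 and 1360.2 ± 90.2 in controls (SD, n = 3 each) and fell with sh1 (-0.46 ± 0.065, adjusted p = 4.22e-07). EIF4H, which like EIF4B stimulates the helicase, rose with sh6 (0.32 ± 0.056, adjusted p = 8.07e-06) and had -0.060 ± 0.056 with sh1, or 0.061 after quantile normalisation.

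PABPC4, an inducible poly(A)-binding protein, had 6706.5, 6435 and 6849 with sh1, 9869.9, 9652 and 9661 with sh6 and 8415, 8111 and 9149 in controls. It fell with sh1 (-0.36 ± 0.053, adjusted p = 8.34e-07, or -0.22 after quantile normalisation) and rose with sh6 (0.19 ± 0.053, adjusted p = 0.00262), with no overlap between any of the groups. Per kilobase the paralogs stood at 17398, 23056 and 21535 for PABPC1 and 2310.1, 3372 and 2967 for PABPC4 with sh1, with sh6 and in controls.

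**Figure D3:**
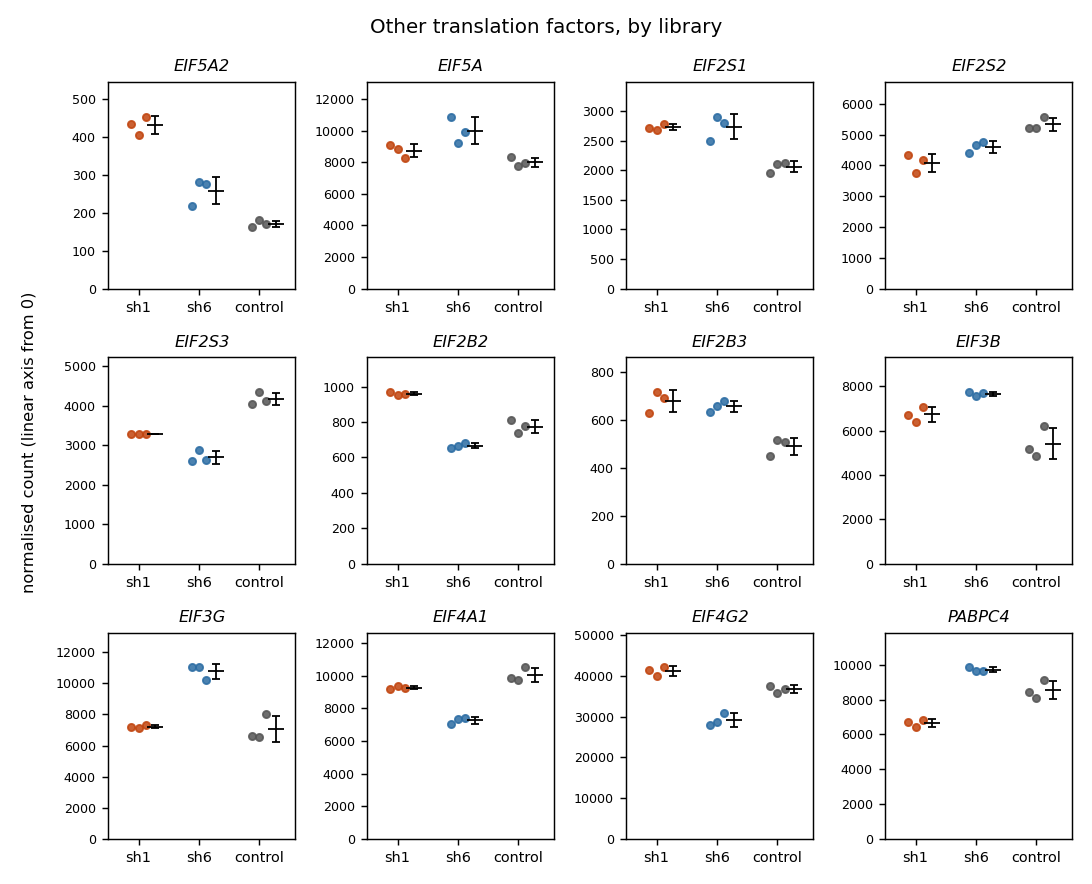
Normalised counts (linear axes from 0) of 12 translation factors that are not TOP mRNAs in each of the 9 libraries, with sh1 on the left, sh6 in the middle and control on the right; points are libraries, the long bar is the mean and the whiskers 1 SD of 3 libraries. EIF5A2 is highest with sh1, EIF3G stands apart with sh6, and in EIF2B2, EIF4G2 and PABPC4 the hairpins lie on opposite sides of the controls.

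The factors of subunit joining rose or were not called. EIF5, which triggers GTP hydrolysis by eIF2 at the start codon, had 11592, 10979 and 11561 with sh1, 11786, 12734 and 12493 with sh6 and 9583, 9497 and 10453 in controls and rose by 0.21 with sh1 and 0.32 with sh6 (adjusted p = 0.00119 and 3.25e-06), with no overlap between any of the groups; the sh1 value was 0.43 after quantile normalisation. EIF6, which keeps the large subunit from joining too early, averaged 2288 ± 116 with sh1, 2640.4 ± 88.0 with sh6 and 2035 ± 120.5 in controls (SD, n = 3 each) and rose by 0.16 with sh1 and 0.37 with sh6. The sh1 rise of EIF6 (adjusted p = 0.0134) was lost without control replicate 1 (0.13, adjusted p = 0.0922) or sh1 replicate 3 (0.13, adjusted p = 0.0981). EIF5B, the GTPase that joins the subunits, had -0.069 ± 0.062 with sh1 and -0.043 ± 0.062 with sh6 and was called with neither.

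The largest rise of any factor with sh1 was in EIF5A2. eIF5A is the protein that carries the modified lysine hypusine, and EIF5A2 is its second gene, low in most tissues. EIF5A2 had 434, 405 and 453 with sh1, 218, 280.3 and 276 with sh6 and 163, 179 and 169 in controls, a 2.52-fold level with sh1 and a 1.51-fold level with sh6 relative to control. No groups overlapped, and the log2 changes were 1.09 ± 0.083 (adjusted p = 1.08e-12) with sh1 and 0.46 ± 0.083 (adjusted p = 1.29e-05) with sh6. EIF5A, the common form, had 9083, 8827 and 8289 with sh1, 10892.5, 9195 and 9901 with sh6 and 8332, 7787.5 and 7931 in controls. It rose with sh6 (0.31 ± 0.057, adjusted p = 1.69e-05); the sh1 value of 0.12 ± 0.057 (adjusted p = 0.0667) passed after median centring (0.14, adjusted p = 0.0344) and quantile normalisation (0.28, adjusted p = 0.000172). Per kilobase EIF5A stood at 6699.7 with sh1, 7669 with sh6 and 6150.3 in controls, against 755 with sh1, 452.5 with sh6 and 299 in controls for EIF5A2, so the common form remained far more abundant in each group. These levels depend on the lengths used, medians over annotated coding transcripts of 1303.5 bases for EIF5A and 570 for EIF5A2. Of the 2 enzymes that make hypusine, DOHH averaged 134 ± 10.5 with sh1, 123 ± 19.1 with sh6 and 72.4 ± 13.4 in controls (SD, n = 3 each) and rose with both hairpins (0.59 with sh1 and 0.50 with sh6), while DHPS had 0.11 with sh1 and 0.021 with sh6 and was called with neither.

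Release factors were lower with sh1. ETF1, the gene of eRF1 that reads the stop codon, had 4715, 4584 and 4738 with sh1, 4803.5, 5215 and 5236 with sh6 and 5827, 5961 and 6154 in controls, and fell by 0.35 with sh1 and 0.23 with sh6 (adjusted p = 8.23e-07 and 0.000213), with every hairpin library below the controls; after quantile normalisation the sh1 value was -0.19. GSPT1, the gene of its GTPase partner eRF3, averaged 4036 ± 142.5 with sh1, 4919 ± 139.9 with sh6 and 4941 ± 177 in controls (SD, n = 3 each); it fell with sh1 (-0.29 ± 0.052, adjusted p = 1.76e-05, or -0.16 after quantile normalisation) and had -0.0061 ± 0.052 with sh6.

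Set directly against each other, the hairpins differed in many of these genes. In sh6 minus sh1, 29 of 54 factors were higher and 7 lower (background as above); the median was 0.17 against 0.011 over all genes. Quantile normalisation changed this split to 19 higher and 11 lower, and that of the 42 factors outside the TOP list, 17 higher and 7 lower, to 10 higher and 11 lower. The largest differences upward were in EIF3G (0.57 ± 0.060), PABPC4 (0.54 ± 0.053), EEF1B2 (0.47 ± 0.054) and EEF1G (0.47 ± 0.060). The largest downward were in EIF5A2 (-0.63 ± 0.083), EIF4G2 (-0.50 ± 0.055), EIF2B2 (-0.49 ± 0.061) and EIF4A1 (-0.35 ± 0.051), and each of these 8 had an adjusted p of 5.98e-07 or less. In all 8 the sh6 libraries did not overlap the sh1 libraries, which the choice of the largest called differences largely fixes, so it adds no support. Called in opposite directions against control were 4 factors, EEF1B2, EIF2B2, EIF4G2 and PABPC4, where 6.4% of all tested genes were. BBOX1 too was higher with sh6, by 0.75 ± 0.065 (adjusted p = 2.73e-11); its part in the difference between the hairpins was not tested.

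**Figure D4:**
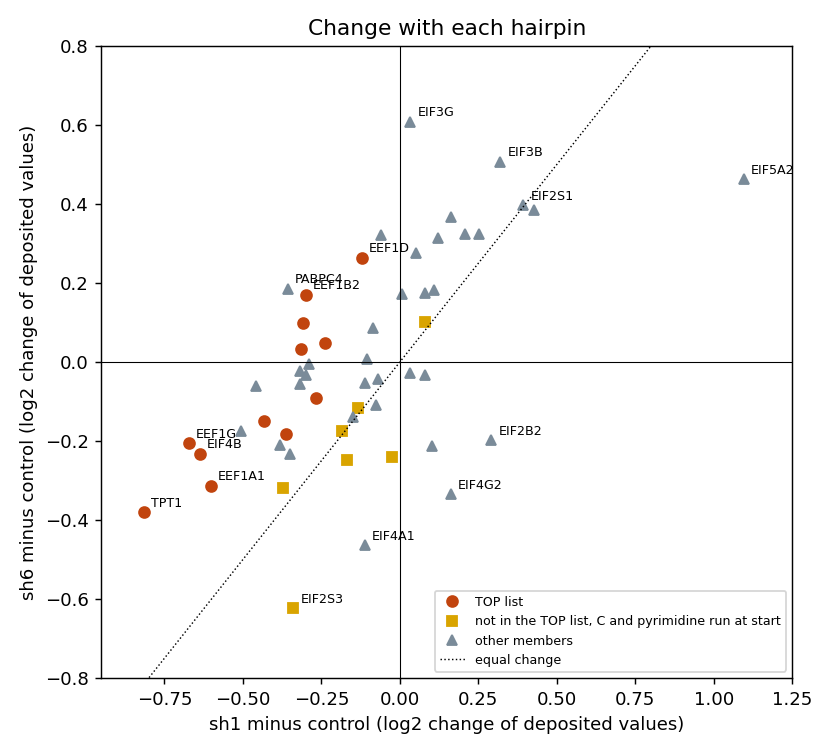
Log2 change of the deposited values with sh1 minus control (horizontal axis) and with sh6 minus control (vertical axis) for the 54 tested translation factors; circles are TOP mRNAs, squares are other factors with a C and a pyrimidine run at an annotated start, triangles are the rest, and the dotted line marks equal change. All 12 circles lie left of 0 and above the dotted line, and EIF5A2 lies far to the right; both axes share the same 3 control libraries, and after quantile normalisation RACK1 moves to the right of 0 and EEF1A1 below the line.

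Other genes of the translation pathway were counted by whole lists. For scale, 29.0% of all tested genes rose and 30.0% fell with sh1, and 34.2% rose and 33.6% fell with sh6. Of 30 tested regulators of translation, 7 rose and 10 fell with sh1, and 11 rose and 13 fell with sh6; quantile normalisation made the first split 11 higher and 9 lower. PDCD4, an inhibitor of eIF4A, had the largest change among them: 748, 694 and 719 with sh1, 775, 849 and 762 with sh6 and 2704, 2819 and 2687 in controls, a fall of -1.84 ± 0.059 with sh1 and -1.71 ± 0.059 with sh6. MTOR, the kinase of mTORC1, averaged 1769.5 ± 49.5 with sh1, 2082 ± 145.5 with sh6 and 1288 ± 98.8 in controls (SD, n = 3 each) and rose by 0.44 with sh1 and 0.67 with sh6. PAIP2, an inhibitor of poly(A)-binding protein, averaged 2201 ± 149 with sh1, 2071 ± 95.7 with sh6 and 3146 ± 256 in controls (SD, n = 3 each) and fell by 0.50 with sh1 and 0.59 with sh6. Named after their values were seen, LARP1 had 0.058 with sh1 and 0.66 with sh6, and EIF4EBP1, an inhibitor of the cap-binding protein, had -0.012 with sh1 and -0.82 with sh6.

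Targets of the integrated stress response, which phosphorylation of EIF2S1 sets off, were lower mainly with sh6: of 10 tested, 1 rose and 5 fell with sh1 and 0 rose and 9 fell with sh6. Beside this list and those that follow stand the shares over all tested genes. These were 29.0% higher and 30.0% lower with sh1, and 34.2% higher and 33.6% lower with sh6. TRIB3 averaged 1916 ± 103.5 with sh1, 1218 ± 81.3 with sh6 and 2846.5 ± 206.5 in controls (SD, n = 3 each), and its log2 change was -0.56 with sh1 and -1.18 with sh6. CHAC1 (-0.27 with sh1 and -1.26 with sh6), PSAT1 (-0.21 with sh1 and -0.68 with sh6) and SESN2 (-0.21 with sh1 and -0.62 with sh6) also fell with both, and the mRNA of ATF4 itself had -0.083 with sh1 and -0.064 with sh6 and was called with neither. In sh6 minus sh1, 8 of the 10 targets were lower and 0 higher, where 28.9% of all tested genes were lower and 30.8% higher. Of 22 genes for cytosolic tRNA synthetases and their scaffold proteins, 10 rose and 4 fell with sh1 and 6 rose and 9 fell with sh6; quantile normalisation made the first split 15 higher and 1 lower. AARS (0.64 with sh1 and 0.62 with sh6) and FARSA (0.29 with sh1 and 0.43 with sh6) rose with both hairpins, and SARS (-0.14 with sh1 and -0.70 with sh6) and WARS (-0.19 with sh1 and -0.39 with sh6) fell with both. Of 10 tested mitochondrial translation factors, 4 rose and 2 fell with sh1 and 3 rose and 6 fell with sh6, with GFM1 (0.54 with sh1 and 0.33 with sh6) and GUF1 (0.43 with sh1 and 0.21 with sh6) higher and GFM2 (-0.27 with sh1 and -0.54 with sh6) and MTIF3 (-0.32 with sh1 and -0.56 with sh6) lower with both.

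The authors' deposited table also holds a log2 fold change and an adjusted p for each gene, from a comparison whose samples no source used here states. By the authors' deposited table, 55 of the 56 translation factors have an adjusted p, which is under 0.05 for 21, 7 of them higher and 14 lower. By the authors' deposited table, 6 TOP mRNAs are under 0.05 and lower, and 0 are under 0.05 and higher. The largest values among those 21 in the authors' deposited table are 1.01 for EIF5A2 and -0.59 for TPT1.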

How the data were processed

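RNA of poly(A)-selected mRNA from 9 libraries of MDA-MB-468 cells was sequenced as paired ends, per the labels' protocols. Per the submitters' processing notes the genome build was hg19 and the tools were STAR, Salmon, cutadapt and DESeq2; the tools' versions are not given in the sources used here. The authors deposited 1 table of log2 values per gene and library, variance-stabilised counts with a shared floor of 5.0195, which the table's name calls batch-corrected. The same deposited table holds the authors' log2 fold change and adjusted p-value per gene.

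The transformation was inverted to normalised counts; 75.3% to 80.2% of the values per library then came out within 0.05 of whole reads. Genes whose mean lay at least 1 above the floor (16.2 normalised counts) were tested: 13165 genes. The test was limma 3.58.1 (R 4.3.3): 1 linear model of the 3 groups on the deposited log2 values, with a mean trend in the variance, two-sided, and Benjamini-Hochberg adjustment over all tested genes. Descriptive values used Python 3.11.15, pandas 2.3.3 and scipy 1.17.1. The procedure was checked on simulated data. Levels per kilobase used median coding transcript lengths of GENCODE (GRCh38).

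The 56 genes and the other lists were chosen with earlier results of these data known. Values in every library are given for the TOP mRNAs, the 6 largest rises and falls called with both hairpins, the 4 largest each way per comparison, and paralogs; of other lists up to 4 genes called with both hairpins are named. The eIF3 module and octamer lists were drawn after values were seen. In the symbols column, 27 entries read as dates. Alternatives tried were other scalings (median centring, quantile normalisation), the log2 of the recovered count plus 1, voom on recovered reads, other filters, thresholds and variance models, array weights, a replicate block and leaving out each library.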

Additional observations from a re-analysis of the deposited data

Results flagged for a closer look

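In 4 of the 54 tested translation factors the hairpins moved the mRNA in opposite directions against the shared controls, and 6.4% of all tested genes were called this way, so the number is near the background. The difference sh6 minus sh1 was 0.47 for EEF1B2 and 0.54 for PABPC4, both higher with sh6, and -0.49 for EIF2B2 and -0.50 for EIF4G2, both lower with sh6. Opposite calls largely fix that difference, so it adds no separate support. In these 4 genes, which were picked by their calls, every library of one hairpin was above and every library of the other below the controls. Without 1 library, 2 of the 8 calls were lost: EEF1B2 with sh6 without sh6 replicate 2 (0.12, limma adjusted p = 0.077) and EIF4G2 with sh1 without sh1 replicate 3 (0.15, adjusted p = 0.0616). A cause was not tested.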

How the results depend on the processing

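Over the log2 changes of the 54 tested factors in 4 comparisons and all alternatives, 4016 values kept their side of the threshold, 224 lost the call, 68 gained one, and 8 turned sign while called in the fit as reported or in the alternative. A further 74 values turned sign while called in neither, and are counted among the 4016. With a log2 change of at least 0.32 required as well, 16 factors were called with sh1, 12 with sh6, 11 for the mean of both, 16 in sh6 minus sh1, and 5 with both hairpins. Among all 13165 tested genes, 2132 were then higher and 2339 lower with sh1, and 2801 higher and 2929 lower with sh6. For the mean of both, 2167 of all tested genes were higher and 2415 lower, and in sh6 minus sh1 2215 higher and 2315 lower. Of the TOP mRNAs 6 were then lower with sh1, 1 lower and 0 higher with sh6, and 7 higher in sh6 minus sh1; of the others 7 were lower and 3 higher with sh1, and 3 lower and 8 higher with sh6. Quantile normalisation gave 4 TOP mRNAs higher with sh6 and 16 other factors higher with sh1. It also turned 29 signs, 21 of them of values called in neither. The other 8 were EEF1A1 (-0.082), EIF3D (-0.13), EIF3M (-0.21) and ETF1 (-0.041) in sh6 minus sh1, EIF3D (0.020), EIF3M (0.099) and RACK1 (0.089) with sh1, and EEF2 (0.028) for the mean of both; the cause was not tested. Leaving out 1 library gave 32 to 37 factors called with sh1, 31 to 37 with sh6, 33 to 38 for the mean, 32 to 38 in sh6 minus sh1 and 18 to 23 with both. It left 11 to 12 TOP mRNAs lower with sh1, 5 to 6 lower and 1 to 2 higher with sh6 (1 without sh6 replicate 2), and 12 to 12 higher in sh6 minus sh1. Of the other factors it left 13 to 16 lower and 8 to 12 higher with sh1, and 11 to 14 lower and 12 to 16 higher with sh6. BBOX1 ranged from -2.83 to -2.71 with sh1 and -2.08 to -1.96 with sh6. Replicate numbers gave no clear pairing of the libraries in these values, which are named batch-corrected. Correlations of deviations were -0.1281 to 0.1755 for the same number and -0.1829 to 0.168 for different numbers. With a replicate block 37 factors were called with sh1, 37 with sh6, 38 for the mean of both, 38 in sh6 minus sh1 and 24 with both hairpins. In sh6 minus sh1, the calls of EIF2S2 and EIF3B were lost without sh1 replicate 2 (adjusted p = 0.114 and 0.0813), and that of EIF5A without sh6 replicate 1 (adjusted p = 0.0527). With 3 libraries a group, many calls rest on small changes.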
